A study of Mus musculus with 12 samples.

Results

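Interferon-stimulated genes are the genes that cells switch on after interferon has bound its receptor, and 39 of them were followed here through the livers of mice with and without hepatocyte RXRα and with and without dietary retinoic acid (RA). A gene was measured if the array had a probe set that belonged to it alone, and the probe set with the highest mean was used. By this rule 34 of the 39 genes were measured, among 12393 genes in all. Isg15 and Tgtp1 lie on probe sets shared with another gene, and Ifi44, Ddx58 and Xaf1 have no probe set in the annotation used here. The genes were divided into 31 targets mainly of type I interferon, of which 27 were measured, and 8 targets mainly of type II interferon, of which 7 were measured.

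The WT group comprised male C57BL/6 mice, 12 weeks old, on a normal diet, and the WT_RA group ate the same diet with all-trans RA at 150 mg/kg for 7 days. The KO mice, of the same background, carried floxed RXRα alleles and an albumin promoter-driven Cre, and stayed on the normal diet. The KO_RA mice were KO mice given RA in the same way. The deletion removes the exon for the DNA-binding domain in hepatocytes only, leaves other liver cells intact, and still allows a truncated protein with the ligand-binding domain to be made. Each group had 3 arrays of whole liver RNA, labelled as biological replicates. In whole liver, fewer cells of a type and less RNA per cell cannot be told apart. The comparisons ask what RXRα deficiency did on each diet, what RA did in each genotype, and whether the RA effects differed.

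Type I interferons are made by almost any infected cell and act through a complex with Stat2 and Irf9, which binds the interferon-stimulated response element (ISRE). Type II interferon, or interferon gamma, comes mainly from NK and T cells and acts through the gamma-activated site (GAS) and induces Irf1. Many target genes answer to both, so the division is one of degree. In liver these programmes run in hepatocytes as well as in Kupffer cells, the resident macrophages, and in endothelial cells.

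Promoters of 8 genes that were called or had large changes are shown because they carry the letters that interferon signalling reads. Usp18 has no window in the table used. A window reached from 250 bases before to 50 bases after an annotated start (RefSeq, GRCm38.p6), and 30 of the 39 genes had one. The letters searched on both strands were GAAANNGAAA for the ISRE, which reads TTTCNNTTTC on the other strand, and TTCNNNGAA for the GAS. In the stretches below, written 5′ to 3′ on the gene's strand, capitals mark every match to either motif, and overlapping matches run together.
Gbp2: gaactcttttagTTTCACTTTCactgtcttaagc
Gbp3: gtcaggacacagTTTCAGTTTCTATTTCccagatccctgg
Igtp: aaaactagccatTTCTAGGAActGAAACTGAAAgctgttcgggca
Irgm1: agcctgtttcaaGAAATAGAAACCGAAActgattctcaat
Irf1: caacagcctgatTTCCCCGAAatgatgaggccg
Cxcl10: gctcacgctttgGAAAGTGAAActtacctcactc
Ifit1: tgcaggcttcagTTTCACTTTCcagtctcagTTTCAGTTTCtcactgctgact
Ifit3: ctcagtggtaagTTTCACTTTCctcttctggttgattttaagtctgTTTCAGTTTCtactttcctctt

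These stretches lie at chr3:142620592-142620625 (+) for Gbp2, chr3:142559987-142560026 (+) for Gbp3, chr11:58199499-58199543 (+) for Igtp and chr11:48871423-48871462 (-) for Irgm1. Those of Irf1, Cxcl10, Ifit1 and Ifit3 lie at chr11:53769912-53769944 (+), chr5:92349081-92349114 (-), chr19:34640773-34640825 (+) and chr19:34583361-34583428 (+). All 8 end before the annotated start. Irf1 held a GAS and no ISRE, Igtp held a GAS just before an ISRE, and Gbp3 and Irgm1 each held a pair of overlapping ISRE matches. Some genes have more than 1 window, and a gene was counted if any of them held a match. Gbp3 and Irf1 have 2 windows each, and the stretch shown is from the 1 with a match. Over the 30 genes, 18 (60%) held an ISRE match and 10 (33.3%) a GAS match, against 3.99% and 9.55% of the 27025 genes with a window of this length. An ISRE match was found in 6 of 7 type II targets and 12 of 23 type I targets. A GAS match was found in 3 of 7 and 7 of 23. A match is a description of the letters and not a bound site.

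**Figure D1:**
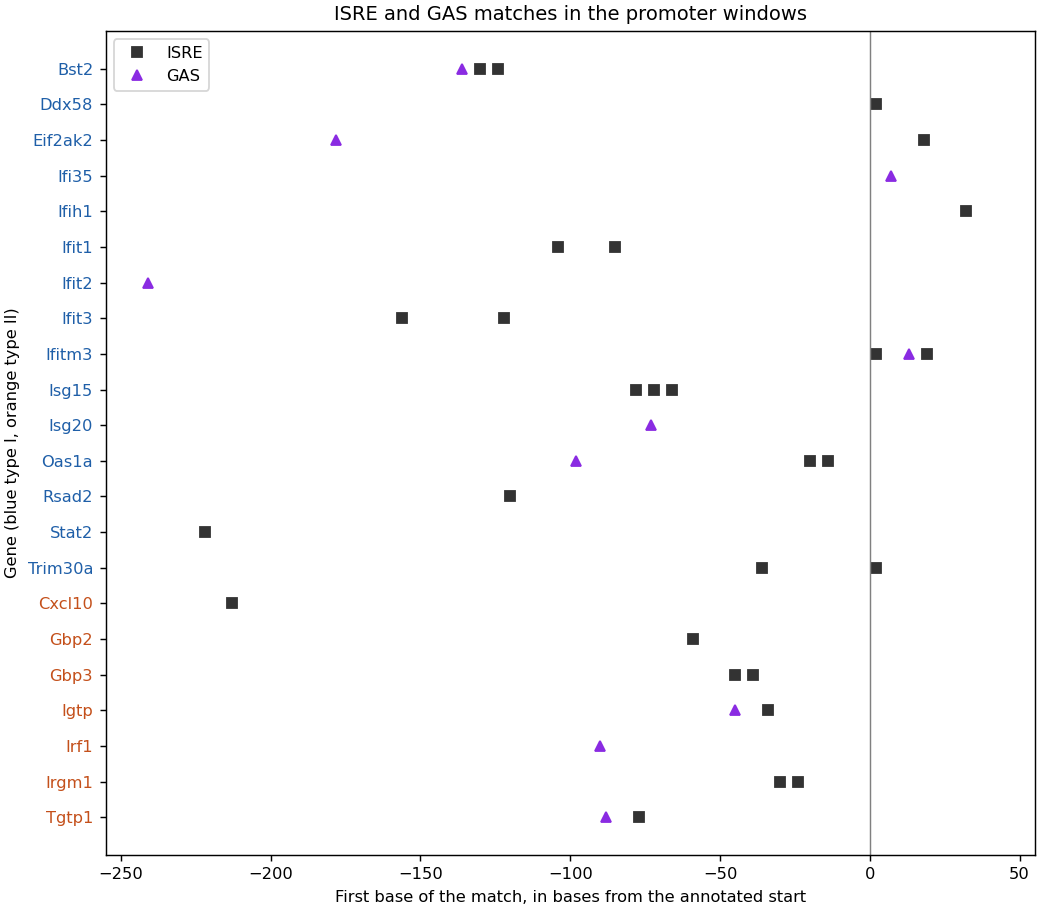
Position of ISRE matches (squares) and GAS matches (triangles) in the promoter windows of the listed genes that held at least 1 match, in bases from the annotated start (x axis), with type I targets in blue and type II targets in orange. Matches of the type II targets lay between the Cxcl10 match 213 bases before the start and the Irgm1 match 24 bases before it.

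The arrays were on a common log2 scale, with medians of 6.26 to 6.35. On WT_RA 3 and KO 1 the 3' control of Actb was low, at 9.40 and 9.12, against 12.1 to 12.9 on the remaining 10 arrays. These arrays stand apart. For the interferon-stimulated genes, the counts called were also taken without them, as were the medians for KO against WT and for RA in KO mice. Results for the cell markers and the other gene lists are given with all 12 arrays only. Cyp26a1, the RA-degrading enzyme, read 7.99 and 8.51 on average in WT and KO and 12.5 and 11.3 in WT_RA and KO_RA, so the diets matched their labels. The Rxra probe set read 10.1 to 10.9 on all arrays, with group means of 10.6, 10.2, 10.5 and 10.8 in WT, WT_RA, KO and KO_RA. Its position relative to the deleted exon was not determined, so it checks no label. Hepatocyte markers such as Alb and Ttr were near the same summed level throughout (132 to 134 log2 units over 10 genes). Errors below are standard errors (SE) of a limma model with n = 3 arrays per group. Genes with an adjusted p under 0.05 were called, and p-values are adjusted over all 12393 genes. The model pools the spread of a gene over all groups, so errors and intervals of every contrast include the scatter of the KO arrays. Where KO scatters most, this widens the errors of contrasts without KO and narrows those of KO against WT and KO_RA against KO.

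RXRα deficiency on the normal diet went with higher levels of 3 interferon-stimulated genes. Usp18 rose 4.28-fold and Irf1 1.86-fold, and Gbp2 rose by 1.96 on the log2 scale. With these, 3 of 34 rose against 0.484% of all genes, and 0 of 34 fell against 0.831%. The levels of 28 of 34 were above WT, as were 54.9% of all genes. At an unadjusted p under 0.05, 20 of 34 were higher, against 7.96% of all genes, and 0 of 34 were lower. Their median change was 0.58 on the log2 scale, beside 0.02 over all genes. All 3 KO arrays were above all 3 WT arrays for 10 of 34 genes, a share of which 9.85% is found over all genes. The 10 were Usp18, Gbp2, Gbp3, Ifit3, Ifih1, Isg20, Irf1, Oasl2, Rtp4 and Ifitm3. The only gene entirely below WT was Mx2, with a change of -0.16 ± 0.10 (SE), where 10.2% of all genes did the same.

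**Figure D2:**
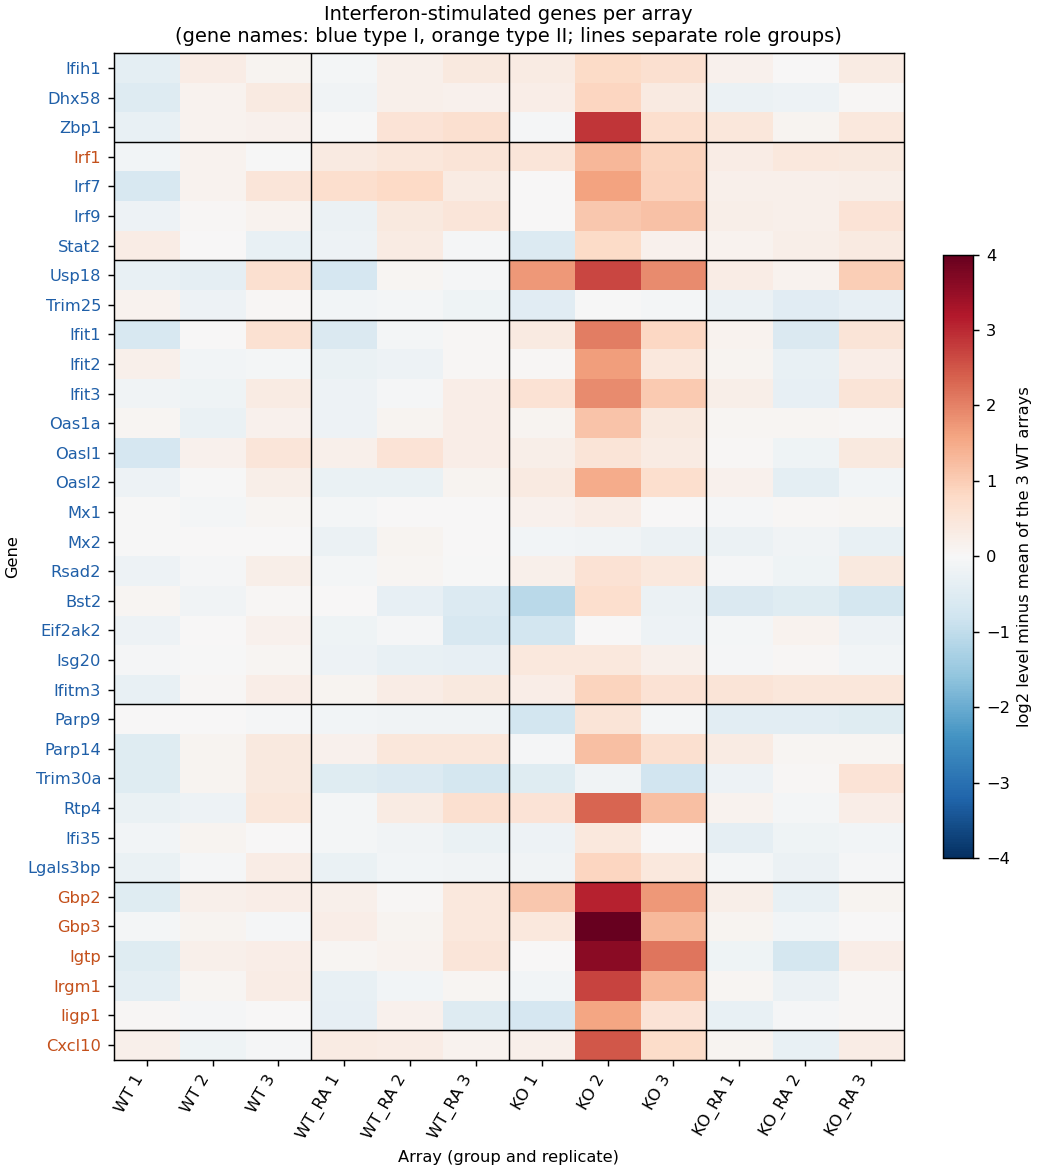
Level of the 34 measured genes (rows, in role groups) on each of the 12 arrays (columns), as the log2 level minus the mean of the 3 WT arrays. The column of KO 2 is the reddest, with Gbp3 4.05, Igtp 3.61 and Gbp2 3.07 above the WT mean, whereas on KO 1 Igtp was 0.01 above it.

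Of the sensors of foreign nucleic acid, Ifih1 (MDA5) detects long double-stranded RNA, Dhx58 (LGP2) assists it, and Zbp1 binds Z-form nucleic acids and can start cell death. Ifih1 read 7.48, 8.15 and 7.96 on the WT arrays and 8.19, 8.62 and 8.50 on the KO arrays. It read 7.79, 8.05 and 8.27 in WT_RA and 8.03, 7.89 and 8.19 in KO_RA. The KO arrays lay just above the WT arrays without overlap, while both RA groups overlapped WT. The KO minus WT change of Ifih1 was 0.57 ± 0.18, with an adjusted p of 0.156. Zbp1 read 6.04 to 6.51 in WT but 6.29, 9.20 and 7.03 in KO, so the groups overlapped and its change of 1.16 ± 0.53 missed the threshold (adjusted p = 0.309). Dhx58 had a change of 0.49 ± 0.21, and its dimmer probe sets, with means of 5.78 and 4.17, had changes of 0.23 and 0.03.

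Among the transcription factors, Irf1 drives the interferon gamma programme and Irf7 amplifies type I interferon, while Irf9 and Stat2 belong to the complex that binds the ISRE. Irf1 read 8.43, 8.70 and 8.52 in WT and 8.91, 9.02 and 9.06 in WT_RA. It read 9.03, 9.88 and 9.43 in KO and 8.86, 8.97 and 8.95 in KO_RA. Every array of the other 3 groups was above every WT array, and KO 2 and KO 3 stood clear of both RA groups, whereas KO 1 was below WT_RA 3. The KO minus WT change of Irf1 was 0.89 ± 0.17 (adjusted p = 0.0273). Irf7 and Irf9 had changes of 0.85 ± 0.34 and 0.76 ± 0.27 and did not pass, and Stat2 had one of 0.13 ± 0.27.

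In the ISG15 system, Usp18 takes the ubiquitin-like ISG15 off its targets and dampens the type I interferon receptor, and Trim25 is a ubiquitin ligase. Usp18 had the largest change of the 34 genes. It read 5.82, 5.77 and 6.77 in WT, 5.45, 6.20 and 6.06 in WT_RA, 7.84, 8.79 and 8.01 in KO, and 6.43, 6.27 and 7.10 in KO_RA. All 3 KO arrays, KO 1 included, lay above every array of the other groups, of which KO_RA 3 was the closest. The change was 2.10 ± 0.33 (95% interval 1.38 to 2.81, adjusted p = 0.0112). Trim25 had a change of -0.19 ± 0.13.

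The 13 direct antiviral effectors include the Ifit proteins, which bind viral RNA, the Oas family, which activates an RNase, the Mx GTPases, viperin (Rsad2), tetherin (Bst2), the kinase PKR (Eif2ak2), the exonuclease Isg20 and the entry inhibitor Ifitm3. Of these, 0 of 13 passed in KO against WT with limma, where 1.32% of all genes did. An unadjusted p under 0.05 was found for 8 of 13, against 16.3% of all genes. The changes of the 13 effectors ran from -0.31 for the Eif2ak2 probe set used to 1.18 for Ifit3, with a median of 0.40. Isg20 had the smallest p among them. It read 4.91, 4.94 and 5.06 in WT, 4.77, 4.67 and 4.65 in WT_RA, 5.39, 5.39 and 5.18 in KO, and 4.94, 5.01 and 4.86 in KO_RA. The KO arrays were the 3 highest, and 11 of the 12 values were under their array's lower quartile over genes (5.25 to 5.46), a dim range for a probe set. The change of Isg20 was 0.35 ± 0.09, with an adjusted p of 0.0826.

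The Ifit genes separated the KO arrays from each other. Ifit3 read 6.40, 6.39 and 6.88 in WT and 7.15, 8.46 and 7.59 in KO, and Ifit1 read 5.21 to 6.47 in WT and 6.21, 7.88 and 6.68 in KO. Their changes of 1.18 ± 0.30 and 1.08 ± 0.42 had adjusted p-values of 0.0866 and 0.239. Mx1, Mx2 and Eif2ak2, from the type I list, had changes of 0.16, -0.16 and -0.31. A second and dimmer Eif2ak2 probe set, with a mean of 5.25, had a change of 0.06, so no direction is given for Eif2ak2. Mx1 lay under the lower quartile on all 12 arrays, and Ifit2 and Oasl2 on 11.

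The group of ADP-ribosyltransferases and other targets held Rtp4, a chaperone of receptors, and Parp9 and Parp14, which attach ADP-ribose to proteins. Rtp4 read 6.82, 6.87 and 7.54 in WT, 7.01, 7.40 and 7.71 in WT_RA, 7.62, 9.40 and 8.29 in KO, and 7.22, 7.00 and 7.35 in KO_RA. KO 1 was just above WT 3 and below WT_RA 3. The change was 1.36 ± 0.36 (adjusted p = 0.097). A second and dimmer Rtp4 probe set, with a mean of 4.41, had a change of 0.29. Trim30a, a TRIM protein that restrains Toll-like receptor signalling, was the lowest of the 34 at -0.47 ± 0.23, but its other probe set had a change of 0.61, so no direction is given for it. Parp14, Lgals3bp, Ifi35 and Parp9 had changes of 0.60, 0.39, 0.08 and -0.10.

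The interferon gamma GTPases comprise guanylate-binding proteins (Gbp) and immunity-related GTPases (Igtp, Irgm1, Iigp1), which attack the vacuoles of intracellular pathogens. Gbp2 read 4.59, 5.26 and 5.33 in WT and 5.26, 5.12 and 5.47 in WT_RA. It read 6.15, 8.13 and 6.79 in KO and 5.30, 4.76 and 5.17 in KO_RA. The KO arrays were the 3 highest. The other 9 arrays were near or under the lower quartile over genes, 8 of them under it, so WT was dim and the size of the change is uncertain. The change was 1.96 ± 0.39 (adjusted p = 0.0338), and the second Gbp2 probe set gave the same 1.96. The probe set used is of the kind that Affymetrix marks as able to cross-hybridize, whereas the second is not.

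Igtp and Gbp3 had changes near that of Gbp2 with wider errors, and Irgm1 and Iigp1 smaller ones, and their arrays are given after their values had been seen. Igtp read 8.55, 9.24 and 9.28 in WT but 9.03, 12.6 and 11.2 in KO, so that KO 1 lay inside the WT range. Irgm1 read 7.65, 8.14 and 8.36 in WT and 7.95, 10.8 and 9.37 in KO, again with KO 1 inside. Gbp3 read 4.69, 4.88 and 4.73 in WT and 5.20, 8.82 and 6.06 in KO, without overlap. Their changes were 1.92 ± 0.65, 1.31 ± 0.49 and 1.93 ± 0.64, with adjusted p-values of 0.177, 0.224 and 0.170. Iigp1 read 10.7 on KO 1, below the WT range of 11.3 to 11.4, and 12.9 and 11.9 on KO 2 and KO 3, with a change of 0.49 ± 0.41. Cxcl10, the chemokine that draws T and NK cells, read 5.97, 5.60 and 5.73 in WT, 6.09, 6.06 and 5.91 in WT_RA, 5.96, 8.25 and 6.51 in KO, and 5.87, 5.48 and 6.07 in KO_RA. Here KO 1 was within WT, and the change of 1.14 ± 0.42 had an adjusted p of 0.216.

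**Figure D3:**
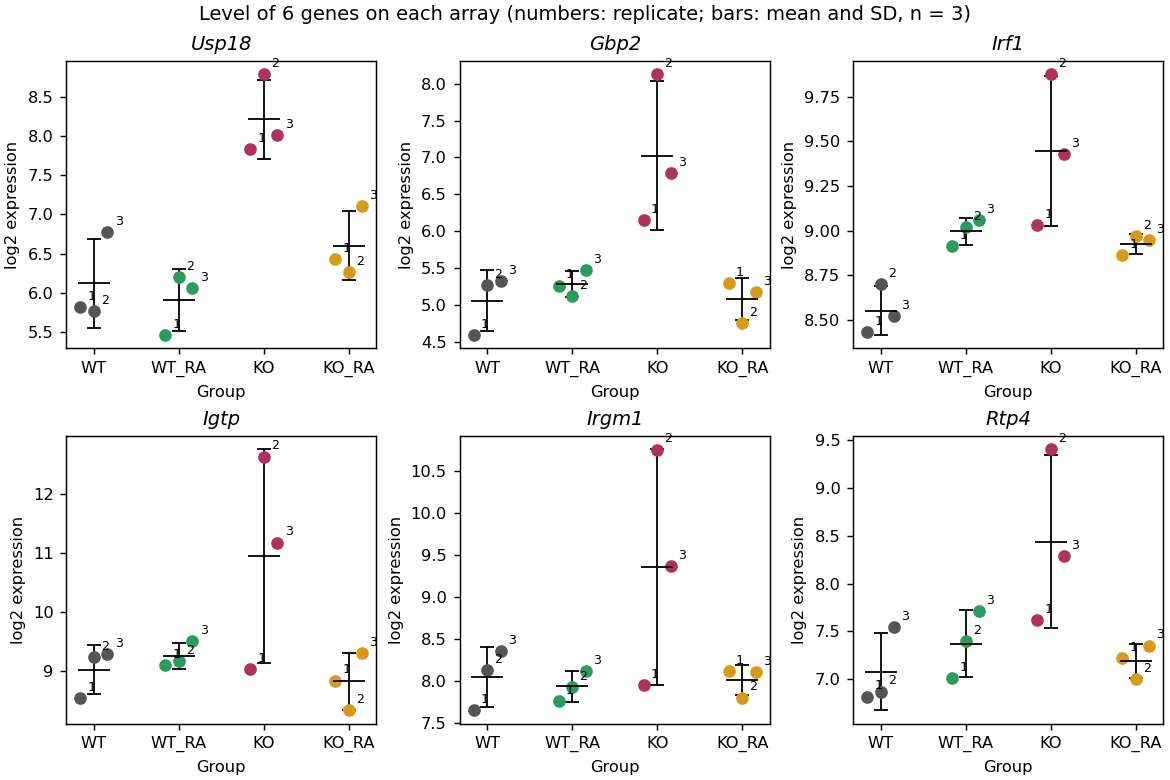
Level of Usp18, Gbp2, Irf1, Igtp, Irgm1 and Rtp4 on each array (log2 expression, y axis; numbers mark replicates) in the 4 groups, with the mean and SD of n = 3. All 3 KO arrays are clear of the other groups for Usp18 and Gbp2, while for Igtp KO 1 reads 9.03 beside 12.6 on KO 2.

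Set side by side, the 7 type II targets had a median KO minus WT change of 1.31, with a range of 0.49 to 1.96, and 2 of 7 were called. The 27 type I targets had a median of 0.49, with a range of -0.47 to 2.10, and 1 of 27 was called. All 7 type II targets and 21 of 27 type I targets were above WT. Without Cxcl10 and Irf1, which answer strongly to both interferons, the type II median was 1.92 over 5 genes. Both medians lean on KO 2, without which they were 0.68 for type II and 0.30 for type I targets, and without KO 1 they were 2.01 and 0.64. Without WT 1 the type I median was 0.32. The medians are descriptions, and the difference between the lists was not tested.

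The mice of the KO group differed from each other more than those of any other group. As the median over the list of the deviation from the WT mean, the type II targets read 0.19 on KO 1, 2.70 on KO 2 and 1.30 on KO 3, and the type I targets 0.03, 0.85 and 0.41. The 9 arrays of the other groups lay between -0.24 and 0.42 for type II and between -0.21 and 0.25 for type I. KO 1 was thus within the range of the other groups on both lists, KO 2 and KO 3 were above it on both, and the gap between the lists was 0.16, 1.85 and 0.89. KO 2 was the highest of all 12 arrays for 27 of 34 genes (79.4%), against 7.7% of all genes. The order KO 2, KO 3, KO 1 held for 29 of 34 (85.3%), all 7 type II targets among them, against 17.5% of all genes. The median SD within KO was 0.60 over the 34 genes and 1.20 over the type II targets. It was 0.25, 0.18 and 0.16 over the 34 genes in WT, WT_RA and KO_RA, and 0.11 to 0.13 over all genes in the 4 groups.

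KO 1 is also 1 of the 2 arrays with the low Actb control, and the counts turn on it. Without KO 1, 11 of 34 genes were called in KO against WT, with 217 of all genes. Without both such arrays 12 were called, with 266 of all genes. Without both, Igtp had a change of 2.88 (adjusted p = 0.00606) and Irgm1 of 2.01 (adjusted p = 0.0127). Conversely, without WT 1 or without WT 2 limma called 0 of the 34, with 71 and 51 of all genes called. In these fits 14 and 16 of the 34 had an unadjusted p under 0.05, and the matching share of all genes is not given here. Without WT 3 or KO 3, Usp18 alone was called, with 102 and 86 of all genes. Without KO 2, Usp18, Gbp2 and Irf1 were still called, with changes of 1.81, 1.41 and 0.68.

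**Figure D4:**
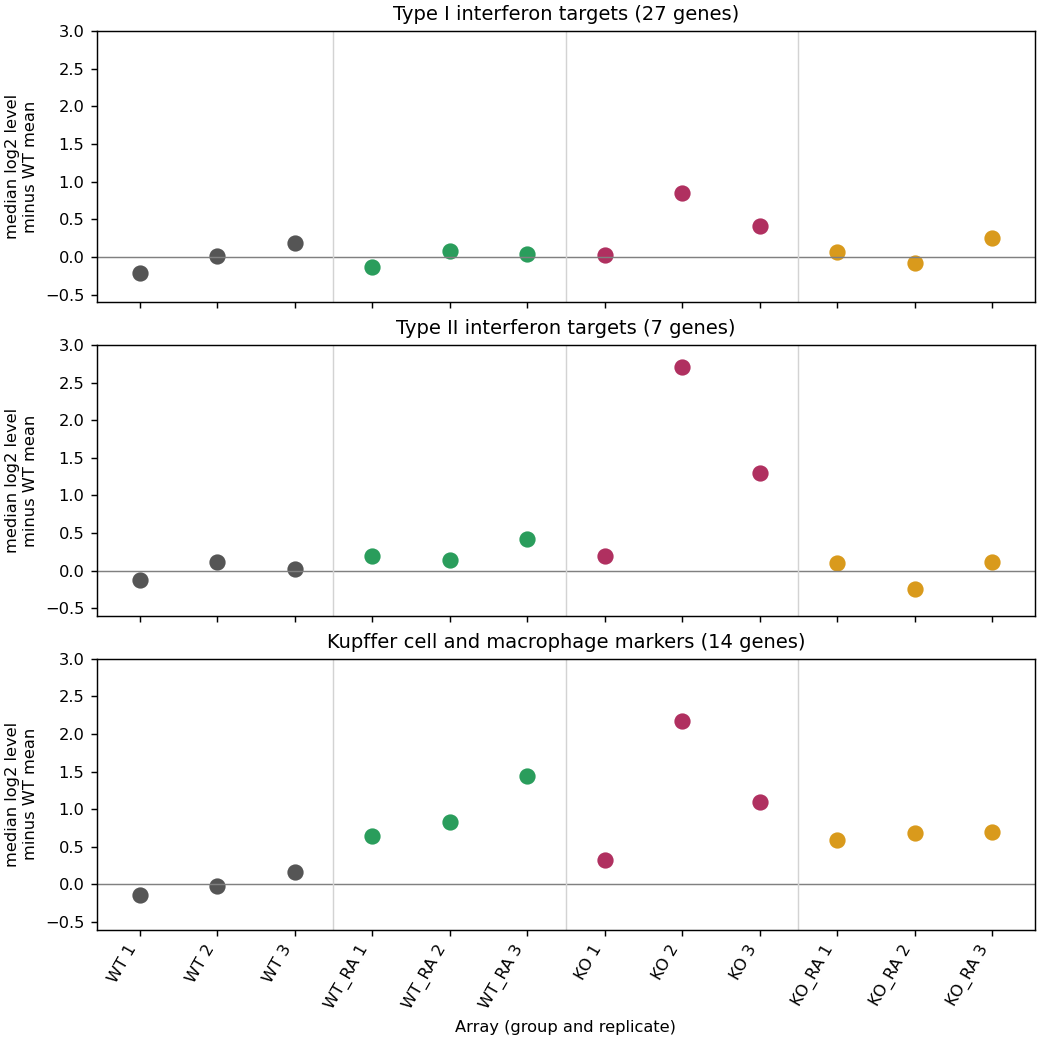
Median deviation from the WT mean (log2, y axis) over the 27 type I targets, the 7 type II targets and 14 Kupffer cell and macrophage markers on each of the 12 arrays (points, coloured by group). KO 2 is the highest array in all 3 panels, and the WT_RA arrays lie above the WT arrays in the marker panel (0.65 to 1.45) and slightly in the type II panel (0.14 to 0.42), and among them in the type I panel (-0.13 to 0.08).

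Markers of other liver cells were read on the same arrays. Of 15 Kupffer cell and macrophage markers, such as Clec4f, Cd5l and Adgre1, 14 were measured, and their median deviation was 0.33, 2.18 and 1.09 on the KO arrays, the same order as the interferon-stimulated genes. None of the 14 was below the lower quartile on all arrays, and their summed level was 95.2 to 98.6 in WT and 101 to 127 in KO. In KO against WT 0 of 14 passed with limma, against 1.32% of all genes, and 14 of 14 had an unadjusted p under 0.05, against 16.3%. The median change of the 14 markers was 1.22. In WT_RA their summed level was 105 to 116, and Cd163 and Cd14 rose, while the medians were -0.13 to 0.08 for the type I targets, within the WT range, and 0.14 to 0.42 for the type II targets, above the WT range of -0.12 to 0.11. Under RA, Cd163 fell in KO against WT, by 0.79 ± 0.19 (adjusted p = 0.0381). Of 12 T and NK cell markers 10 were measured, and Cd3d, Cd3g, Gzma and Cd2 were below the lower quartile on all 12 arrays. Their median deviations on the KO arrays were 0.23, 0.29 and 0.11, and their summed level was 51.9 to 54.0 in WT and 53.9 to 56.1 in KO. The 10 endothelial markers had deviations of 0.22, 0.48 and 0.29 and summed levels of 70.6 to 72.7 and 73.1 to 76.8. Of monocyte and dendritic cell markers 6 of 8 were measured (Ccr2 and Xcr1 below the lower quartile throughout), with deviations of 0.35, 0.21 and 0.24. Of B cell markers 5 of 6 were measured and of neutrophil markers 8 of 10, with deviations of 0.24, 0.24 and 0.08 and of 0.24, 0.15 and 0.10. The part of these cells in the result was not tested.

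On the RA diet none of the genes passed. In KO_RA against WT_RA limma called 0 of 34 genes, where 3.95% of all genes passed. At an unadjusted p under 0.05 it was 2 of 34 (Isg20 and Trim30a), against 17.8% of all genes. The median change was 0.005 for the 34 genes, and that of Gbp2 was -0.21 (95% interval -1.05 to 0.63). For Usp18 it was 0.70 (95% interval -0.02 to 1.41, adjusted p = 0.297), and whether this differed from the change on the normal diet is tested below as the difference between the RA effects. Usp18, Isg20 and Ifitm3 were above WT_RA on all 3 arrays, as were 11.3% of all genes. The Trim30a probe set used was too, with a change of 0.72, but its other probe set had one of -0.03. In turn, Gbp3, Irf7, Trim25 and Parp9 were below it, as were 14.3%. Intervals for Igtp (-1.84 to 0.98) and Gbp3 (-1.66 to 1.12) were wide, and they include the KO scatter through the pooled spread. The SD of Gbp3 was 0.16 in WT_RA and 0.12 in KO_RA, against 1.89 in KO. For Igtp it was 0.22, 0.48 and 1.81.

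**Figure D5:**
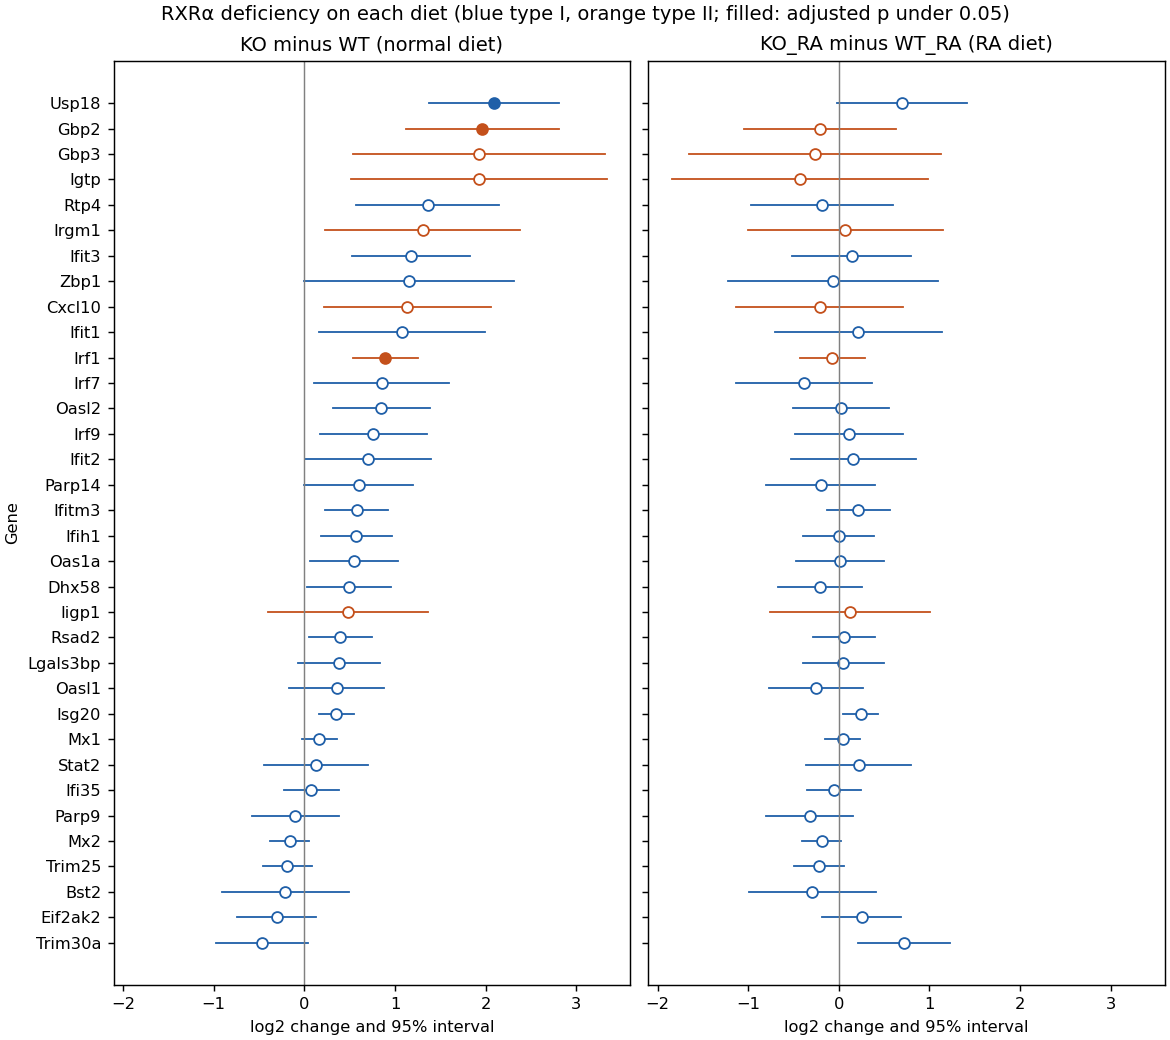
Fitted log2 change of each of the 34 genes with its 95% interval for KO minus WT (left) and KO_RA minus WT_RA (right), ordered by the left panel, with type I targets in blue, type II in orange and filled points for an adjusted p under 0.05. On the left 28 of 34 points are above 0 and Usp18, Gbp2 and Irf1 are filled, and on the right no point is filled.

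In KO mice RA went with lower values of most of these genes, none past the threshold. This comparison shares the KO arrays with KO against WT, so it is no separate observation of them. With limma 0 of 34 genes were called, against 0.5% of all genes. A negative change was found for 31 of 34, against 57.0% of all genes. At an unadjusted p under 0.05, 15 of 34 were lower, where 7.92% of all genes were. Trim30a, for which no direction is given, also had such a p, with changes of 0.60 and -0.41 on its 2 probe sets. The closest to the threshold were Gbp2, with -1.95 ± 0.39 (adjusted p = 0.0506), and Usp18, with -1.62 ± 0.33 (adjusted p = 0.0551). All 3 KO_RA arrays were below all 3 KO arrays for 11 of 34 genes, and for 12.3% of all genes. The 11 were Usp18, Gbp2, Gbp3, Ifit3, Ifih1, Isg20, Irf1, Oasl2, Oas1a, Rtp4 and Dhx58. Ifih1 was close to a tie, at 8.1891 on KO_RA 3 beside 8.1894 on KO 1. So was Oas1a, at 7.005 on KO_RA 2 beside 7.021 on KO 1. Dimmer probe sets of Dhx58 (-0.17 and -0.02) and Rtp4 (-0.08) had smaller changes than those used. The median change was -1.35 for type II and -0.40 for type I targets, beside -0.03 for all genes. Other cells' markers moved too: the median was -0.58 for the 14 Kupffer cell markers, 13 of them negative, -0.18 for the 6 monocyte and dendritic cell markers, all 6 negative, and -0.23 for the 10 endothelial markers. Of the endothelial ones Tek and Fcgr2b fell, by 0.99 ± 0.15 and 0.46 ± 0.09 (adjusted p = 0.0184 and 0.0419), and the hepatocyte gene Tat rose by 0.92 ± 0.16 (adjusted p = 0.0376). Their part in the result was not tested. Igtp read 8.84, 8.33 and 9.30 in KO_RA, with KO_RA 1 inside the WT range, KO_RA 2 below it and KO_RA 3 just above it, and its change of -2.12 ± 0.65 had an adjusted p of 0.174. Without KO 1, 5 of 34 were called (Gbp2, Irf1, Rtp4, Igtp and Irgm1), with 68 of all genes. Without both arrays that stand apart, 6 were called, with 110 of all genes. Without KO 2 the type II median was -0.65 and the type I median -0.19, and without KO 1 they were -2.05 and -0.71.

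RA in wild type mice moved none of these genes past the threshold. Limma called 0 of 34, against 1.27% of all genes, and 3 of 34 (Irf1, Isg20 and Trim30a) had an unadjusted p under 0.05, against 11.7% of all genes. The median change was -0.002 for the 34 genes, -0.01 for type I and 0.23 for type II targets. Irf1 and Gbp3 were above WT on all 3 WT_RA arrays, by 0.44 ± 0.17 and 0.27 ± 0.64, as were 8.77% of all genes. Isg20 and Parp9 were below it, by values of -0.28 ± 0.09 and -0.13 ± 0.22, as were 7.86%. For Usp18 the change was -0.22 (95% interval -0.93 to 0.50).

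The RA effects of the genotypes were set against each other in the same model. Limma called 0 of 34 genes, where 0.00807% of all genes passed, and 13 of 34 had an unadjusted p under 0.05, against 11.7% of all genes. The RA effect in KO minus that in WT was -2.17 ± 0.55 for Gbp2, -0.96 ± 0.23 for Irf1, -1.40 ± 0.47 for Usp18 and -2.36 ± 0.92 for Igtp. Their adjusted p-values were 0.222, 0.212, 0.282 and 0.353. Without KO 1, Irf1 and Igtp passed, with 14 of all genes.

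Of the interferons and the cytokines that raise them, 11 of 11 listed genes were measured. Ifna4, Ifna5, Ifna11, Ifng, Il12a, Il12b and Il15 were under the lower quartile on all 12 arrays, so a change in them could be missed. Il18, which drives interferon gamma release, rose in KO against WT by 0.68 ± 0.15 (adjusted p = 0.0452). It alone of the 11 was called in that comparison, where 1.32% of all genes were. It read 7.56, 7.84 and 8.03 in WT and 8.36, 8.68 and 8.42 in KO, with no overlap. Ifng read 3.82 to 4.15 on all 12 arrays, each time under the lower quartile, and its change was 0.16 ± 0.09. Ifnb1 read 5.52 to 5.96, with a change of 0.07 ± 0.10. Of 27 receptor and signalling genes 22 were measured, 0 of 22 passed with limma in KO against WT and 3 had an unadjusted p under 0.05, near the 16.3% of all genes that did, with a median change of -0.02.

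Of 41 further interferon targets 28 were measured. In KO against WT 0 of 28 passed, against 1.32% of all genes, and 12 had an unadjusted p under 0.05, against 16.3%. Above WT were 26 of 28, against 54.9% of all genes, and the median change of the 28 was 0.31. Gbp6, chosen after its values were seen, read 4.22, 4.84 and 5.56 in WT, 5.32, 10.3 and 8.12 in KO, and 3.86, 3.77 and 4.75 in KO_RA. Its RA effect in KO of -3.78 ± 0.89 missed the threshold (adjusted p = 0.0823), and 9 of its 12 values, all 3 of KO_RA among them, were under the lower quartile, so its size is uncertain. Of 12 genes for class I antigen processing, through which infected cells are shown to T cells, 10 were measured. In KO against WT 0 of 10 passed and 2 had an unadjusted p under 0.05, again near the share over all genes, with a median change of 0.42. Psmb10 and Psmb9, subunits of the immunoproteasome, were chosen after their values were seen. They read 8.26, 10.9 and 9.48 and 7.77, 10.5 and 9.10 on the KO arrays, the same order as the GTPases.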

How the data were processed

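Liver RNA of 12 mice in 4 groups of 3 was hybridized to Affymetrix mouse arrays, 1 array per mouse. The authors deposited log2 values per probe set. The submitters' processing notes name RMA and Partek 6.11, while the study's methods name MAS5 for its own analysis. Such normalization brings arrays to a similar distribution, so an overall shift cannot be seen. Scanner files were not used here, and the number of arrays limits the precision.

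Of 22690 probe sets, 20380 had 1 gene symbol, and symbols matched RefSeq for the 20351 that could be looked up. The highest-mean probe set of each gene gave 12393 genes, without a filter on dim values. Group means were fitted as a linear model over all 12 arrays (limma 3.58.1, R 4.3.3, two-sided, 8 residual degrees of freedom), and p-values of each of 5 contrasts were adjusted by Benjamini-Hochberg over all genes. The fit was also run on simulated data in which each gene had the same spread in all groups. The interferon-stimulated genes spread more in KO, so that run does not show how the fit behaves for them. List medians are descriptions. The genes, lists and tests were chosen with earlier results of these data known. Values per array are given for members called in any contrast and, in each role group, for the one with the smallest unadjusted p for KO minus WT. From the other lists, called genes are named. Values of Zbp1, Ifit1, Ifit3, Igtp, Irgm1, Gbp3, Iigp1, Gbp6, Psmb10, Psmb9, Ifng and Ifnb1 fall outside these rules and are given with the values already known. Alternatives were a replicate block, further quantile normalization, centring on array medians, a filter at the median level, the mean of all probe sets, a trended and robust spread, only the groups of a contrast, leaving out arrays singly or both that stand apart, and a shorter type II list.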

Additional observations from a re-analysis of the deposited data

Results flagged for a closer look

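For 2 genes every WT_RA array lay above every WT array while every KO_RA array lay below every KO array. Over all genes 8.77% did the first and 12.3% the second, and the share that did both was not counted. For Irf1 the difference between the RA effects was -0.96 ± 0.23 (SE, n = 3), with limma's adjusted p of 0.212. For Gbp3 the difference was -2.20 ± 0.90, with an adjusted p of 0.382. Gbp3 was under the lower quartile over genes on 10 of 12 arrays, all WT and WT_RA arrays among them, and WT_RA 2 read 4.89 beside 4.88 on WT 2. The difference was tested in both cases and did not pass, with 0.445 and 0.274 for the RA effect in wild type mice and -0.519 and -1.92 for that in KO mice.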

How the results depend on the processing

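No call reversed. The counts for KO_RA against WT_RA and for WT_RA against WT were 0 under all alternatives that gave a value. In KO against WT, 1 gene was called among genes at or above the median level, where 20 of the 34 were tested (Irf1), 1 with only the groups of the contrast (Usp18), 12 without both arrays that stand apart, and 0 to 11 when 1 array was left out. For RA in KO mice the counts were 2 after further quantile normalization (Usp18 and Gbp2), 6 without both such arrays, and 0 to 5 when 1 array was left out, where leaving out WT 3 gave Usp18. The count for the difference between the RA effects was 0 to 2 when 1 array was left out. For RA in KO mice the type I median was -0.71 without both arrays and -0.71 to -0.19 without 1 array, and the type II median -2.05 and -2.05 to -0.65. For KO against WT the type II median was 2.01 without both arrays and 0.68 to 2.01 without 1 array. With the mean of all probe sets, or with a trended and robust spread, Gbp2 was no longer called, and leaving out KO_RA 3 did the same. The cause of these shifts was not tested beyond the smaller number of genes or arrays.

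With the replicate block 1 gene was called for RA in KO mice (Usp18), and in KO against WT Gbp2 was lost, leaving 2. The numbers did not pair the samples: over 18 same-numbered pairs the correlation of deviations ran from -0.458 to 0.266, with 5 above 0.1.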
